A study of Homo sapiens with 11 samples.

Results

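Dieldrin was set against PMA in poly(A) RNA of Jurkat cells after 30 min. Jurkat, clone E6-1, is an established human T cell leukaemia line. Dieldrin, a cyclodiene organochlorine insecticide, was given at 100 µM, and PMA, a phorbol ester, at 100 µM as labelled, each in DMSO, and the remaining group received DMSO alone. Each group held 3 poly(A)-enriched libraries, so the comparison draws on 6 of the 11 samples of the series, with the 3 DMSO libraries as a common baseline. Nothing in the labels tells separate cultures from repeat libraries of 1 culture, so p-values measure a spread between libraries that may be technical. PMA at 100 µM is far above the doses in common use, and whether that figure is the true dose cannot be read from the data. Both treatments were given to 1 clone, and each was tested at 1 dose and 1 time.

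PMA mimics diacylglycerol, binds the C1 domains of protein kinase C and of RASGRP exchange factors, and so turns on the MAP kinase cascade and NF-kB without the T cell receptor. In T cells this switches on immediate-early genes, which need no new protein synthesis, among them the FOS, JUN and EGR transcription factors and the activation marker CD69. Dieldrin is best known as a blocker of GABA-gated chloride channels in nerve cells, and it is a lipophilic compound that enters membranes. What it shares with a phorbol ester in a T cell, and where it departs from one, is the question that the comparison addresses.

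The data are the authors' 2 deposited tables, dieldrin against DMSO and PMA against DMSO, of 44416 genes each. The difference for a gene is its unshrunken log2 change with dieldrin minus that with PMA, in which the DMSO term cancels. A positive difference means a higher level with dieldrin. Values of single libraries were not at hand. The level of a gene in a group is therefore a mean normalised count worked out from the deposited values, with no spread of its own, and the depth of the libraries is unknown. The standard error of each difference covers 3 libraries against 3. Levels are not divided by transcript length and are compared between treatments, not between genes. The T cell markers fitted the label: all 9 of a list headed by CD3D, CD3E and LCK were tested, together they reached 2977 CPM (mean normalised counts scaled to a common total over all genes), and 0 were called, also at an unadjusted p under 0.05. Myeloid markers summed to 0.671 CPM, erythroid and platelet markers to 0.0483 CPM and fibroblast and epithelial markers to 2.11 CPM. The B cell list summed to 34.9 CPM, of which CD79A made up 34.6 CPM.

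Dieldrin and PMA left RNA levels apart for 258 of 17612 genes tested (1.46%) at an adjusted p under 0.05, by a normal two-sided test with Benjamini-Hochberg adjustment over all tested genes. Of these, 115 were higher with dieldrin (0.653% of tested genes) and 143 lower (0.812%). The median difference over all tested genes was 0.0024 on the log2 scale, and GAPDH, ACTB and CD3E differed by -0.03, 0.10 and -0.03. With shrunken changes and the root of their summed squared errors, 46 were higher and 41 lower. The higher genes lay further apart than the lower ones: their median fold of dieldrin over PMA was 1.75, against 0.696 for the lower genes, and 47 of them were at least 2-fold apart, against 20 of the lower genes. At 1 CPM or more, a mean of 83.7 counts, lay 92 of 115 genes higher with dieldrin and 142 of 143 lower. The called genes under 1 CPM thus lay nearly all on the higher side. Some of them, such as CCL4 (25.9-fold) and RNVU1-14 (7.67-fold), are in the 2-fold count. A low gene needs a wide gap to be called, and the contrast of folds was not drawn at 1 CPM or more. The share of protein-coding genes was 72.2% among the higher genes, 76.2% among the lower genes and 71.8% among all tested genes.

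**Figure D1:**
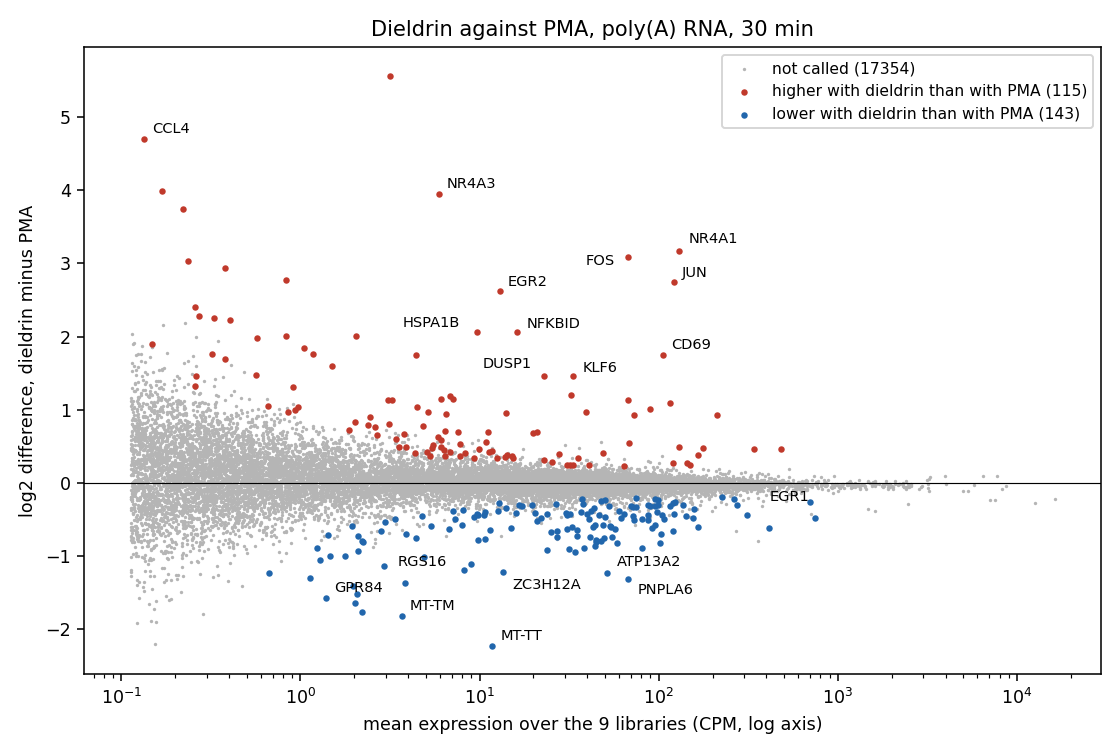
Each point is 1 of the 17612 tested genes, with its mean expression over the 9 libraries in CPM on a log x axis and its log2 difference, dieldrin minus PMA, on the y axis; red points were called higher and blue points lower with dieldrin. Among the labelled genes of at least 1 CPM, NR4A3, NR4A1, FOS and JUN stand highest, while MT-TT, at -2.23, is the lowest called gene.

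The authors' calls against DMSO, which share libraries with the difference and are given only as a description, sort the 258 genes into groups. Of the 115 genes higher with dieldrin, 86 are called higher than DMSO with dieldrin in the authors' deposited table, a call held by 1.38% of the tested genes, and 29 are called with neither treatment. The 86 include SLA, the 1 gene that is also called lower with PMA in the authors' deposited table (0.0908% of tested genes). Of the 143 genes lower with dieldrin, 101 are called lower than DMSO with dieldrin in the authors' deposited table, a call held by 1.12% of the tested genes. A further 19 of the 143 are called higher than DMSO with PMA in the authors' deposited table (0.528% of tested genes), and 23 with neither treatment. Leaving aside the 29 and 23 called with neither, the genes that part the treatments fall into 3 groups: those that dieldrin raised above the PMA level, those that PMA raised above the dieldrin level, and those that dieldrin lowered. They are described in this order.

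The AP-1 family holds the FOS, JUN, ATF3, MAF and BATF proteins, which pair to bind one DNA element. Of 12 tested genes of the family, 5 were higher with dieldrin and 0 lower, with a list median of -0.03. Over all tested genes 0.653% were higher and 0.812% lower, the shares to set beside this count and those of the lists below. JUN (chromosome 1, 59246465 to 59249785, hg19) had mean normalised counts of 26076 with dieldrin, 3904 with PMA and 672 with DMSO. Dieldrin thus stood 6.68-fold above PMA (95% interval 5.48 to 8.14), a log2 difference of 2.74 ± 0.145 (SE), with an adjusted p of 5.85e-75, the smallest of all tested genes. FOS (chromosome 14, 75745477 to 75748933) had 15120 with dieldrin, 1786 with PMA and 54.9 with DMSO, a difference of 3.08 ± 0.327 (adjusted p = 4.95e-18). Both treatments raised JUN and FOS above DMSO in the authors' deposited table, and dieldrin raised them further. JUND, the most constant JUN protein in resting cells, differed by 1.09, the stress-induced repressor gene ATF3 by 1.14 and FOSL2 by 0.69. JUNB went the other way without passing, with 6865 counts with dieldrin and 8326 with PMA, a difference of -0.28 ± 0.144 (adjusted p = 0.704). FOSB was not tested, for want of a p-value. The means implied by the authors' deposited table, 16012 with dieldrin, 297 with PMA and 113 with DMSO, put the treatments 53.8-fold apart. How far a single library carries these means is unknown.

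The EGR factors, zinc finger proteins that lie downstream of MAP kinase in T cells, did not move as a block. EGR1 reached 41708 counts with dieldrin, 52196 with PMA and 1062 with DMSO, so the treatments differed by -0.32 ± 0.188, which did not pass (adjusted p = 0.839). EGR2 (chromosome 10, 64571756 to 64679660) reached 2774 with dieldrin, 452 with PMA and 32.2 with DMSO, a 6.14-fold gap (95% interval 4.45 to 8.46) with an adjusted p of 1.92e-25. EGR3 and EGR4 lack a p-value in the authors' deposited table. Their means were 9692 and 1738 counts with dieldrin, 550 and 448 with PMA, and 166 and 16.01 with DMSO. That is 17.6- and 3.88-fold higher with dieldrin than with PMA, and the part of a single library in these means is unknown. The corepressor genes NAB1 and NAB2, which restrain EGR proteins, differed by -0.05 and -0.03.

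All 3 NR4A genes, orphan nuclear receptors induced by antigen receptor and calcium signals, were higher with dieldrin. NR4A1 (NUR77; chromosome 12, 52416616 to 52453291) had 28471 counts with dieldrin, 3163 with PMA and 858 with DMSO, a difference of 3.17 ± 0.263 (adjusted p = 3.34e-30). For NR4A3 (chromosome 9, 102584137 to 102629173) the means were 1347 with dieldrin, 87.1 with PMA and 63.4 with DMSO, a 15.5-fold gap (95% interval 10.2 to 23.5; adjusted p = 8.80e-34). NR4A2 had 148 with dieldrin, 36.9 with PMA and 22.8 with DMSO, a difference of 2.01 ± 0.346 (adjusted p = 1.79e-06). Against DMSO the authors' deposited table calls PMA higher for NR4A1, with an adjusted p of 0.00497, and not for NR4A3.

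CCL4, a chemokine, was the single call among 6 tested cytokine and chemokine genes, at 31.4 counts with dieldrin, 1.21 with PMA and 1.03 with DMSO, which is 0.134 CPM on average. Its 95% interval was wide, 5.52- to 122-fold, and its mean of 11.2 counts, near the lowest tested mean of 9.44, rests on the dieldrin group. A further 15 cytokine and chemokine genes of the list were not tested. TNF was not tested, since its p-value is given as NA in the authors' deposited table. Its means were 634 counts with dieldrin, 23.9 with PMA and 7.31 with DMSO, and the part of a single library in them is unknown. CYR61, a secreted matricellular protein gene chosen after its values were seen, lacks a p-value in the authors' deposited table and had 852 counts with dieldrin, 102 with PMA and 56.9 with DMSO.

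Among T cell activation surface markers, 2 of 9 tested were higher with dieldrin and 1 lower, against 0.653% and 0.812% of all tested genes. CD69 (chromosome 12, 9905082 to 9913497), a lectin-like early marker that holds lymphocytes in tissue, had 20207 counts with dieldrin, 6010 with PMA and 460 with DMSO, a difference of 1.75 ± 0.147 (adjusted p = 2.47e-29). ICOS, an inducible costimulatory receptor, had 169 with dieldrin, 47.1 with PMA and 47.8 with DMSO, and differed by 1.84 ± 0.282 (adjusted p = 2.42e-08). CD83, an immunoglobulin superfamily marker of activated lymphocytes, was the lower one. Its means were 2736 with dieldrin, 5094 with PMA and 1751 with DMSO, a difference of -0.90 ± 0.0993 (adjusted p = 1.31e-16). CD69 and ICOS thus stood higher with dieldrin and CD83 higher with PMA.

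**Figure D2:**
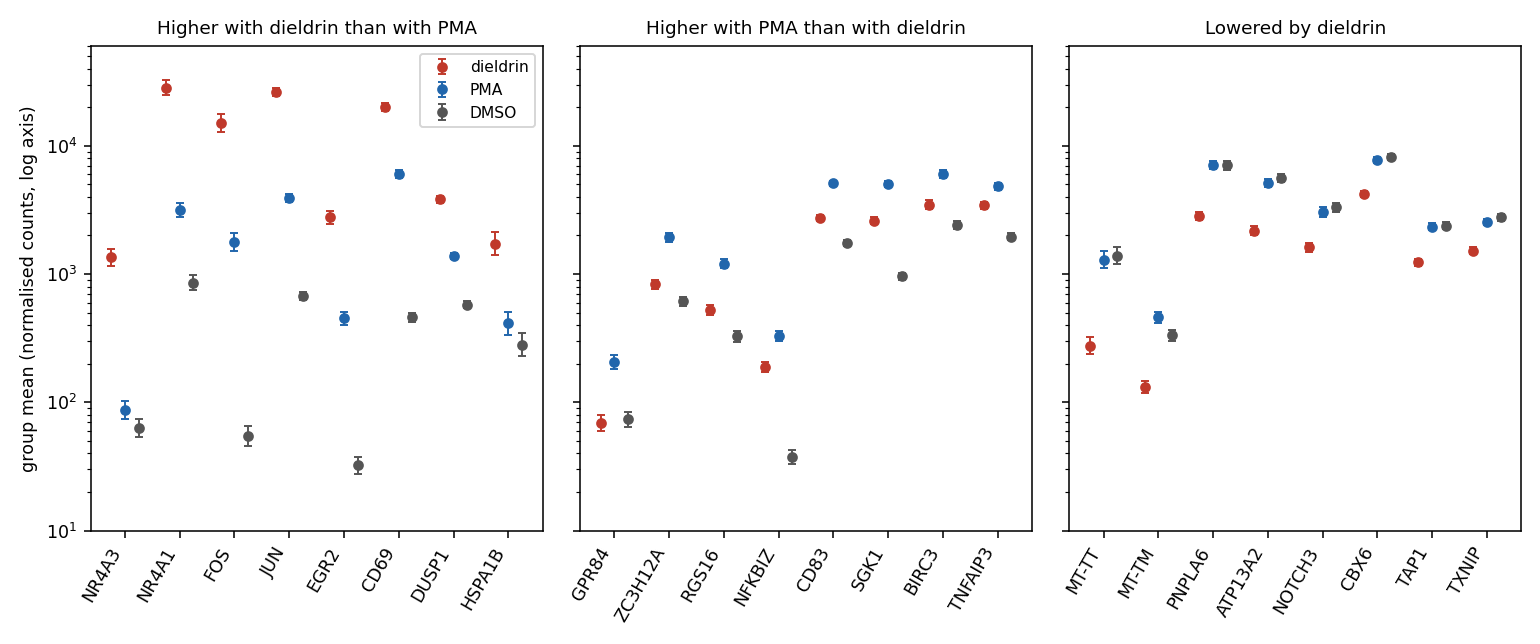
Mean normalised counts on a log axis for 24 genes with dieldrin (red), PMA (blue) and DMSO (grey), 3 libraries each; bars are the standard error from counting error and the implied dispersion. In the left panel dieldrin lies above PMA for all 8 genes, in the middle panel PMA lies above both dieldrin and DMSO, and in the right panel dieldrin lies below both PMA and DMSO.

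Genes tied to cyclic AMP and neuronal activity were led by NPAS4, an activity-dependent transcription factor of neurons, and PTGER4, a prostaglandin E2 receptor. NPAS4 had 709 counts with dieldrin, 210 with PMA and 187 with DMSO, a difference of 1.75 ± 0.124 (adjusted p = 1.18e-41). PTGER4 had 8969 with dieldrin, 4081 with PMA and 3947 with DMSO, a difference of 1.14 ± 0.0920 (adjusted p = 1.20e-31). These were 2 of 11 tested genes of that list, with 0 lower, while 0.653% of all tested genes were higher. ARC, which encodes a synaptic cytoskeletal protein, differed by 1.02 ± 0.315 and did not pass (adjusted p = 0.0726).

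Among feedback genes, DUSP1, a phosphatase that inactivates stress MAP kinases, was the 1 of 11 tested DUSP genes called, against 1.46% of all tested genes. It had 3816 counts with dieldrin, 1390 with PMA and 579 with DMSO, a difference of 1.46 ± 0.117 (adjusted p = 6.44e-32). DUSP2 leaned the other way, with 15209 counts with dieldrin, 23392 with PMA and 2738 with DMSO, and did not pass (-0.62 ± 0.190, adjusted p = 0.0657). Of the mRNA decay regulators, which bind AU-rich elements and shorten the life of induced transcripts, ZFP36L1 was higher with dieldrin by 1.20 ± 0.0883 and ZFP36 (tristetraprolin) lower, at -0.61 ± 0.117. Their adjusted p-values were 2.54e-38 and 3.81e-05. The G protein inhibitors RGS2 and RGS16 likewise stood on opposite sides, RGS2 at 1.18 and RGS16 at -1.19, with 528 counts of RGS16 with dieldrin, 1206 with PMA and 326 with DMSO. Of 12 KLF factors, KLF6 (1.47) and KLF4 (0.90) were higher with dieldrin, and KLF10, a TGF-beta early gene, lower (-0.78). KLF6 had 4882 counts with dieldrin, 1766 with PMA and 1705 with DMSO. CSRNP1 (0.95) was the 1 of 6 IER and CSRNP genes to pass, and IER2, with 26897 counts with dieldrin, 24492 with PMA and 3574 with DMSO, differed by 0.14 ± 0.129.

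The palindromic cyclic AMP response element TGACGTCA, searched in the 250 bases before the gene start, was found in 3 of the 49 promoters matched among the 86 genes raised by dieldrin and higher than with PMA (6.12%). It was in 2.83% of 9957 matched promoters of tested genes and in 1.77% of all 27305 promoters in the RefSeq table (GRCh38.p14). The element was also in 2 of the 12 matched promoters of genes raised by PMA and higher than with dieldrin (16.7%), in 2 of 22 of genes called higher than DMSO with both treatments and not called between them (9.09%), and in 3 of 58 of the dieldrin-lowered genes (5.17%). The 3 carriers among the 86 genes were DUSP1 (chr5:172771196-172771445, minus strand), JUND (chr19:18281623-18281872, minus strand) and PPP1R15A (chr19:48872171-48872420, plus strand). They are printed 5′ to 3′ with the element in capitals, since these early genes are the ones in which the letters stand. In DUSP1 the element begins 125 bases before the start, in JUND 200 and in PPP1R15A 58.

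DUSP1: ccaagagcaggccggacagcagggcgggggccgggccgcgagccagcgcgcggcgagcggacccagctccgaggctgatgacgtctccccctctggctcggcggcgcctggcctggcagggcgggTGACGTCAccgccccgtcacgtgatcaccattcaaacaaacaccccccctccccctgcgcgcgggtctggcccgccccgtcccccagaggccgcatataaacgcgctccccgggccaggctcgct
JUND: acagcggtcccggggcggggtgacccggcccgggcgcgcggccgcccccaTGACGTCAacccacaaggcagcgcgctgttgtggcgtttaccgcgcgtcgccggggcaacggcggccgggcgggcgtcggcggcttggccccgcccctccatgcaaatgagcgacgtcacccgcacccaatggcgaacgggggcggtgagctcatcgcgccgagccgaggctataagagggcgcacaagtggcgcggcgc
PPP1R15A: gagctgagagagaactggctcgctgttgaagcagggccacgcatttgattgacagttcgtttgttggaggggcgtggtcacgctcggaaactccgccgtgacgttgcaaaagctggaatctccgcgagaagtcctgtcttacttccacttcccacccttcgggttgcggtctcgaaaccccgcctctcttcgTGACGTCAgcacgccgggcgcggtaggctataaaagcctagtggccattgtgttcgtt

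Among heat shock genes, HSPA1B, HSPA1A and DNAJB1 were higher with dieldrin than with PMA. These were 3 of 24 tested heat shock chaperones and factors, with 0 lower and a list median of 0.04. Over all tested genes 0.653% were higher. In the authors' deposited table their unshrunken folds of PMA over DMSO were 1.47, 1.84 and 1.70. None of these folds is called there, where 0.528% of tested genes are called higher with PMA. HSPA1B and HSPA1A encode the inducible HSP70 and are near-identical, so the division of reads between them is uncertain. HSPA1B had 1721 counts with dieldrin, 414 with PMA and 281 with DMSO, a difference of 2.06 ± 0.424 (adjusted p = 0.000227), and HSPA1A differed by 1.99 ± 0.459 (adjusted p = 0.00201). DNAJB1, the HSP40 cochaperone, had 28862 with dieldrin, 15249 with PMA and 8973 with DMSO, a difference of 0.92 ± 0.223 (adjusted p = 0.00451). HSPH1, the HSP110 chaperone, had 5467 with dieldrin, 3722 with PMA and 2793 with DMSO, and its difference of 0.55 ± 0.260 did not pass (adjusted p = 0.572). HSP90AA1, HSPA8 and HSPD1, which were not called either, stood at 0.09, 0.09 and -0.02. Of 21 genes of the integrated stress and unfolded protein responses, PPP1R15A, which recruits the phosphatase of eIF2α, was higher (0.96 ± 0.102, adjusted p = 2.20e-18) and XBP1 lower (-0.22 ± 0.0625, adjusted p = 0.0269), while ATF4 stood at 0.09 and DDIT3 at 0.33 (adjusted p = 0.377).

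Further genes higher with dieldrin included VMP1, an autophagy membrane protein gene whose means were 11414 with dieldrin, 5687 with PMA and 5355 with DMSO (difference 1.01 ± 0.0833). The glucocorticoid-induced leucine zipper gene TSC22D3 differed by 1.76, the adaptor gene LAX1 by 1.15 and the GTPase-activating protein gene TAGAP by 1.04. MYC had 34368 counts with dieldrin, 25001 with PMA and 25736 with DMSO, and its difference was 0.46 ± 0.102 (adjusted p = 0.000948). The microRNA host entry MIR24-2 had 353 counts with dieldrin, 88.2 with PMA and 74.7 with DMSO. Which transcripts gave reads over a microRNA entry in poly(A) libraries is unknown, and mature microRNA was not measured. Chosen after their values were seen, U1 small nuclear RNA copies had 3 of 7 tested entries higher and 0 lower, all under 1 CPM. The 3 were RNVU1-20, RNVU1-14 and RNU1-60P, by 2.77, 2.94 and 3.04, and the copies are near-identical. A further 46 U1 entries were not tested. The lowest tested mean was 9.44 counts over the 9 libraries, which a low entry can reach through its dieldrin level alone, so these counts are only a description. Histone genes, a list likewise added afterwards, had 3 of 45 tested entries higher and 0 lower, with a list median of 0.25.

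**Figure D3:**
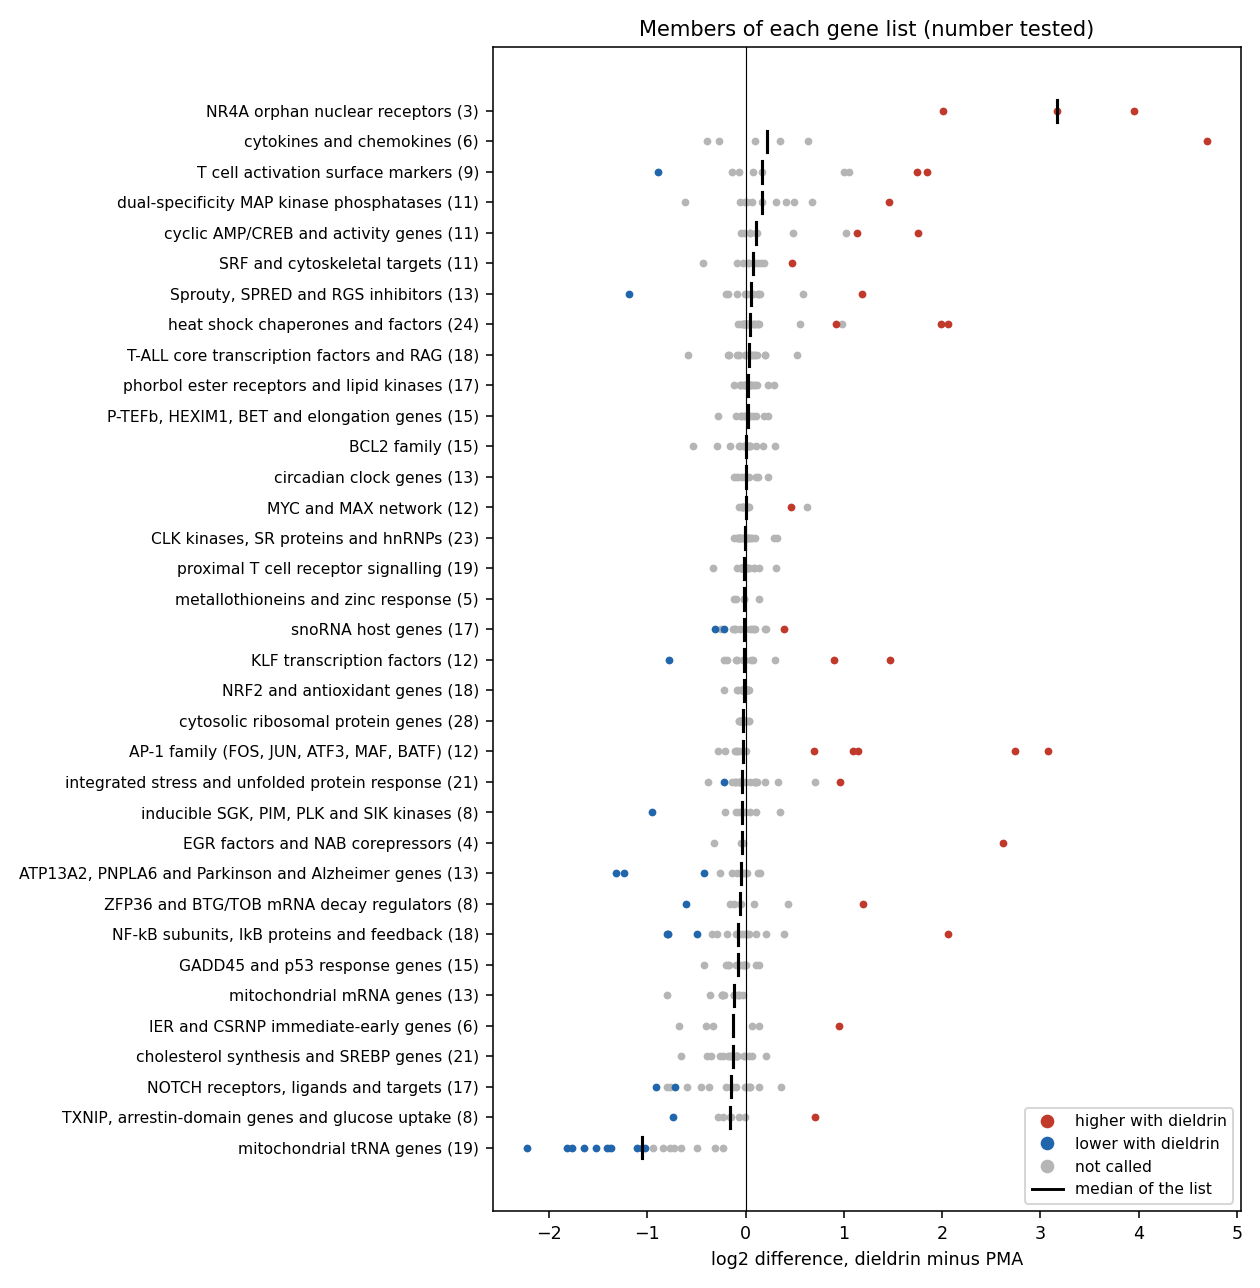
Each row is a gene list with the number of tested members in parentheses, ordered by its median (black bar), and each point is a member's log2 difference, dieldrin minus PMA, on the x axis; red was called higher, blue lower and grey not called. The NR4A row lies highest with a median of 3.17 and the mitochondrial tRNA row lowest with -1.05, while the other lists shown have medians between -0.16 and 0.22.

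BIRC3, NFKBIZ and TNFAIP3, which act in feedback on NF-kB signalling, were lower with dieldrin than with PMA. Of 18 tested NF-kB subunit, inhibitor and feedback genes, 3 were lower and 1 higher with dieldrin, and the list median was -0.07. Over all tested genes 0.812% were lower and 0.653% higher. BIRC3 (cIAP2; chromosome 11, 102188215 to 102210134), a ubiquitin ligase induced by NF-kB, had 3471 counts with dieldrin, 6024 with PMA and 2411 with DMSO, a difference of -0.80 ± 0.159 (adjusted p = 0.000113). NFKBIZ (chromosome 3, 101546835 to 101579866), a nuclear IkB protein, had 190 with dieldrin, 329 with PMA and 37.7 with DMSO, a difference of -0.79 ± 0.181 (adjusted p = 0.00153). TNFAIP3 (A20; chromosome 6, 138188351 to 138204449), which ends NF-kB signalling, had 3429 with dieldrin, 4818 with PMA and 1953 with DMSO, a difference of -0.49 ± 0.122 (adjusted p = 0.00637). The exception was NFKBID, another nuclear IkB protein gene (chromosome 19, 36378555 to 36393205), with 2837 counts with dieldrin, 682 with PMA and 526 with DMSO, 4.16-fold higher with dieldrin (adjusted p = 8.37e-31). NFKBIA, the classical IkBα gene, reached 7433 with dieldrin, 8499 with PMA and 1243 with DMSO, a gap of -0.19 ± 0.110 that did not pass (adjusted p = 0.823). The subunit genes NFKB1, NFKB2, REL and RELA differed by -0.09, -0.06, 0.39 and 0.01 and were not called. With shrunken changes and the root of their summed squared errors, BIRC3, NFKBIZ and TNFAIP3 lost their calls (adjusted p = 0.0681, 0.254 and 0.501).

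The kappaB motif (GGG, any 2 bases, TTTCC), searched on both strands in the 250 bases before the start, was found in 3 of the 12 promoters matched among the 19 genes raised by PMA and higher than with dieldrin (25%). It was in 1.84% of the 9957 matched promoters of tested genes and in 1.73% of all promoters in the table. The carriers were TNFAIP3 (chr6:137867009-137867258, plus strand), with 2 matches beginning 67 and 55 bases before the start, NFKBIZ (chr3:101827740-101827989, plus strand), with 1 match at 223, and BIRC3 (chr11:102317234-102317483, plus strand), with 1 match at 199. The same 3 genes are the NF-kB feedback genes called lower with dieldrin, and so they are printed, 5′ to 3′ with the matches in capitals. Among the 86 genes raised by dieldrin and higher than with PMA, 0 of the 49 matched promoters held the motif. Among the 101 genes lowered by dieldrin 2 of 58 did (3.45%). Of genes called higher than DMSO with both treatments and not called between them, 1 of 22 did (4.55%). A match is a description of the letters, not evidence of binding.

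TNFAIP3: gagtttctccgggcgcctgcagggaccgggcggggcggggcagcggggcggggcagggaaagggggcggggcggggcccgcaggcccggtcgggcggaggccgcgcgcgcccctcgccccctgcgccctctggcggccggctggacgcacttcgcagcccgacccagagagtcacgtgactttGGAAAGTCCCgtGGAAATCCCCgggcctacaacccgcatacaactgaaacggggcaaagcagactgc
NFKBIZ: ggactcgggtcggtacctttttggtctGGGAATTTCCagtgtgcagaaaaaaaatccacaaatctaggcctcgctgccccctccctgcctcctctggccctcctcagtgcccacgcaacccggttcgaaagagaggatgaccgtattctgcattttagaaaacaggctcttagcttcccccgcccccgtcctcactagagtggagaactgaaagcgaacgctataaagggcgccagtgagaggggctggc
BIRC3: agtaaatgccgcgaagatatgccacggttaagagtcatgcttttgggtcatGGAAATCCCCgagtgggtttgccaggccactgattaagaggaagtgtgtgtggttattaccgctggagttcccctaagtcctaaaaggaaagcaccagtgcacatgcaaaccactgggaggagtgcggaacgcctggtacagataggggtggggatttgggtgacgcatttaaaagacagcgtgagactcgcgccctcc

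Other genes higher with PMA were led by GPR84, a receptor for medium-chain fatty acids, with 69.4 counts with dieldrin, 207 with PMA and 73.7 with DMSO (difference -1.57 ± 0.279, adjusted p = 4.66e-06). ZC3H12A (regnase-1), an endonuclease that degrades inflammatory mRNAs, had 833 with dieldrin, 1937 with PMA and 612 with DMSO (-1.22 ± 0.172, adjusted p = 5.85e-10). SGK1, a serum- and glucocorticoid-induced kinase, was the 1 of 8 inducible kinase genes called, with 2607 with dieldrin, 5032 with PMA and 961 with DMSO (-0.95 ± 0.120, adjusted p = 1.29e-12). Each of the 3 stood higher with PMA than with either other group. MIR146A, the entry of a microRNA gene under NF-kB control, had 70.5 with dieldrin, 174 with PMA and 40.2 with DMSO and passed narrowly (adjusted p = 0.0320). FAM83D (-0.66) and the RND1 GTPase gene (-0.76) are called higher than DMSO with PMA and not with dieldrin in the authors' deposited table. Their means with dieldrin, 1868 and 298, lay near the 2030 and 306 of DMSO.

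Of 197 tested genes called lower than DMSO with dieldrin in the authors' deposited table, 101 were also called lower than with PMA. Of these 101, 0 are called there with PMA, against 0.528% (higher) and 0.0908% (lower) of all tested genes. The choice leaves out genes lowered alike by both treatments: of 10 called lower with both, 0 had a called difference. PNPLA6 (chromosome 19, 7598890 to 7626650), neuropathy target esterase, a phospholipase of the endoplasmic reticulum, had 2830 counts with dieldrin, 7040 with PMA and 7024 with DMSO, a difference of -1.31 ± 0.147 (adjusted p = 3.72e-16). ATP13A2 (chromosome 1, 17312453 to 17338423), a lysosomal polyamine transporter mutated in a familial parkinsonism, had 2182 with dieldrin, 5152 with PMA and 5607 with DMSO, a difference of -1.24 ± 0.153 (adjusted p = 2.60e-13). With SORL1 (-0.42), a sorting receptor, these were 3 of 13 tested genes of a list of ATP13A2, PNPLA6 and Parkinson and Alzheimer genes. In that list 0 were higher, and over all tested genes 0.812% were lower. The list was built around ATP13A2 and PNPLA6 with earlier results of these data known, so its count is only a description. CBX6, a polycomb chromodomain protein gene, had 4212 with dieldrin, 7802 with PMA and 8231 with DMSO (-0.89 ± 0.107). TXNIP, an arrestin-like inhibitor of thioredoxin and glucose uptake, had 1520 with dieldrin, 2543 with PMA and 2767 with DMSO (-0.74 ± 0.123). ARRDC3 of the same family differed by 0.70, with 666 with dieldrin, 409 with PMA and 546 with DMSO. For ARRDC3 neither treatment is called against DMSO in the authors' deposited table, and the PMA mean lay below that of DMSO.

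The receptor genes NOTCH3 and NOTCH2 were lower, at -0.91 ± 0.182 and -0.72 ± 0.102. They made 2 of 17 tested NOTCH pathway genes, against 0.812% of all tested genes called lower. NOTCH1, at -0.38 ± 0.123, did not pass (adjusted p = 0.109). NOTCH3 had 1612 counts with dieldrin, 3028 with PMA and 3307 with DMSO. The genes named in the rest of this paragraph were chosen after their values were seen. TAP1 and TAP2, the 2 subunits of the peptide transporter that loads MHC class I, differed by -0.92 and -0.41, whereas HLA-B, HLA-C and B2M lay at 0.00, -0.07 and -0.08. All 3 NOMO genes, which encode a translocon-associated endoplasmic reticulum protein and are near-identical copies, were lower, NOMO1 at -0.58 ± 0.0632. Other membrane protein genes that passed were WRB, a receptor for tail-anchored proteins, ESYT1, IGF2R and NPC1, at -0.81, -0.71, -0.58 and -0.43.

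Proteins encoded by the dieldrin-lowered genes were scanned for hydrophobic segments, that is, for stretches of 19 residues whose Kyte-Doolittle hydropathy averages 1.6 or more, with the longest annotated coding sequence taken per gene. At least 1 segment was present in 57 of 81 proteins of these genes (70.4%), in 16 of 60 of the genes raised by dieldrin and higher than with PMA (26.7%), in 3 of 14 of those raised by PMA and higher than with dieldrin (21.4%) and in 33.4% of 12552 proteins of all tested genes. Long proteins were also frequent among the 101 dieldrin-lowered genes, with a median of 1017 residues against 472 over all tested genes. The median GC content of their coding sequences was 59.97% against 52.6%. A further 96 genes were called lower than DMSO with dieldrin but not called against PMA. Of their proteins, 28 of 54 held a segment (51.9%), with medians of 629 residues and 60.1% GC, so these traits were not confined to the 101. The part of length and GC content in the count of segments was not tested. Read from the proteins to the calls, 0.502% of genes with 0 segments were lower with dieldrin, 0.900% of those with 1, 1.96% of those with 2 to 6 and 4.13% of those with 7 or more. The share called higher ran the other way, at 0.729%, 0.585%, 0.442% and 0.258%.

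**Figure D4:**
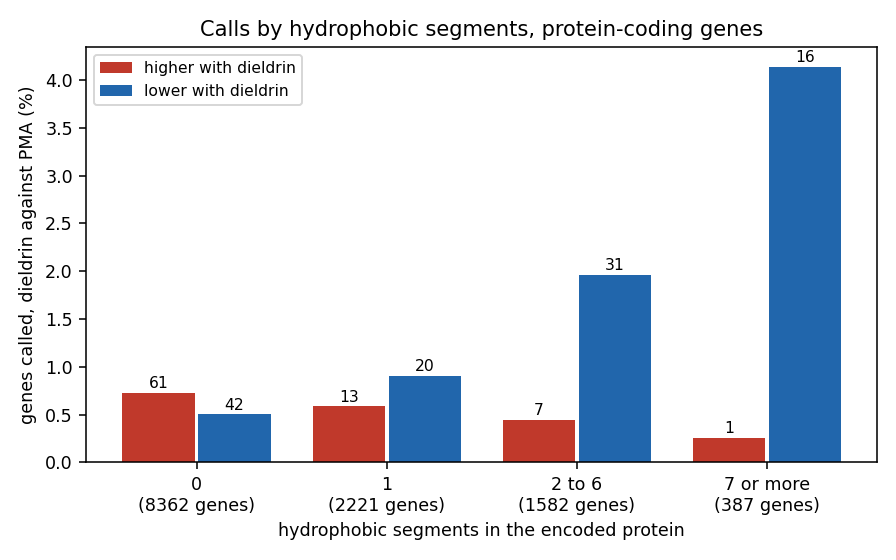
Percent of tested protein-coding genes called higher (red) and lower (blue) with dieldrin than with PMA, by the number of hydrophobic segments in the encoded protein; the number above each bar is the count of called genes. The share called lower is 0.502% with 0 segments and 4.13% with 7 or more, where 16 of 387 genes were called lower and 1 higher.

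Transcripts of the mitochondrial genome included called tRNA genes. Of 19 tested mitochondrial tRNA genes, 10 were lower with dieldrin and 0 higher, against 0.812% of all tested genes called lower. At an unadjusted p under 0.05, 16 were lower, and all 19 differences were below 0, with a median of -1.05. MT-TT, the threonine tRNA gene, had 277 counts with dieldrin, 1299 with PMA and 1390 with DMSO, a difference of -2.23 ± 0.305 (adjusted p = 1.25e-10). MT-TM, MT-TC and MT-TI, for methionine, cysteine and isoleucine, followed at -1.82, -1.77 and -1.64. Their means were 131, 66.6 and 79.8 counts with dieldrin, 462, 227 and 249 with PMA, and 333, 264 and 176 with DMSO. For MT-TM and MT-TI the PMA mean thus stood above DMSO, though PMA is not called there, so the gap to PMA is wider than that to DMSO. MT-TL1, the leucine tRNA gene next to the ribosomal RNA genes, had 455 with dieldrin, 983 with PMA and 825 with DMSO (-1.11 ± 0.131). Of the 13 mitochondrial mRNA genes, 0 were called, 2 were lower at an unadjusted p under 0.05 and all 13 differences were below 0, with a median of -0.12. MT-ND6, the mRNA gene that lies on the strand opposite to the rest, had the widest gap of these, 19828 counts with dieldrin, 34549 with PMA and 35441 with DMSO (-0.80 ± 0.273, adjusted p = 0.151). Which forms of mitochondrial tRNA were captured in poly(A)-enriched libraries is unknown. The summed level of all 22 listed tRNA genes was 112 CPM, and that of the 13 mRNA genes 60501 CPM.

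**Figure D5:**
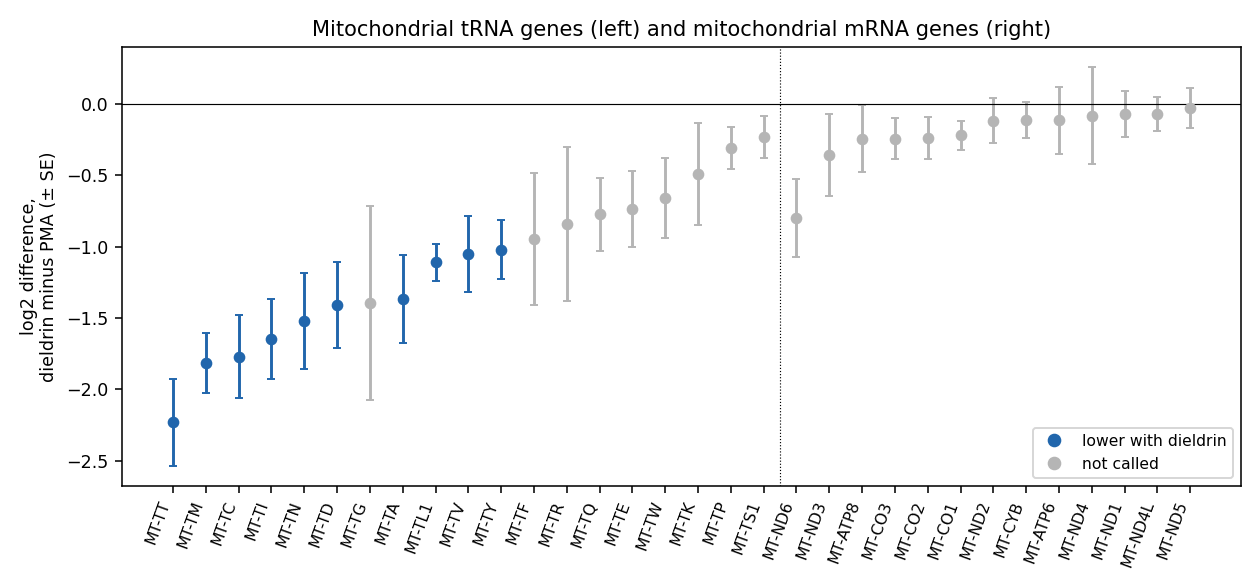
Log2 difference, dieldrin minus PMA, with its standard error for 19 mitochondrial tRNA genes (left of the dotted line) and 13 mitochondrial mRNA genes (right); blue was called lower with dieldrin and grey not called. The tRNA genes lie between -2.23 and -0.23 and the mRNA genes between -0.80 and -0.03.

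Several gene lists held no called gene. Over all tested genes the share called was 1.46%, so a count of 0 in a short list lies near that share and does not mark the list as unaffected. In the lists of phorbol ester receptors and lipid kinases (17 tested genes, among them PRKCB and RASGRP2 at 0.05 and 0.12), BCL2 family (15), NRF2 and antioxidant genes (18), p53 response genes (15), metallothioneins and zinc genes (5), cholesterol and SREBP genes (21) and cytosolic ribosomal protein genes (28), 0 were called and 0 had an unadjusted p under 0.05. MCL1, an early survival gene, had 20043 counts with dieldrin, 19951 with PMA and 6826 with DMSO, and the 95% interval of its fold, dieldrin over PMA, was 0.917 to 1.10. Counts of 0 were also found for P-TEFb and elongation genes (15 tested, 3 at an unadjusted p under 0.05), SR proteins, hnRNPs and CLK kinases (23 tested, 2), T-ALL core factors (18 tested, 1), proximal T cell receptor signalling genes (19 tested, 1) and clock genes (13 tested, 1). HEXIM1, the inhibitor of P-TEFb, came nearest, at -0.28 ± 0.0861 (adjusted p = 0.0609). Of 17 snoRNA host genes, ZFAS1 was higher (0.39) and DANCR (-0.31) and SNHG3 (-0.22) lower. Of 11 SRF and cytoskeletal targets, TPM4 was higher (0.47) and 0 were lower. Some lists without calls had more differences on 1 side of 0. Over all tested genes the median difference was 0.0024, with quartiles of -0.078 and 0.108. Members of a list come from the same libraries and are not separate observations, so the counts of signs are only a description. Of the cholesterol and SREBP genes 18 differences lay below 0 and 3 above (median -0.13). Cytosolic ribosomal protein genes had 24 below and 4 above (median -0.02), and p53 response genes 12 below and 3 above (median -0.07). A p above the threshold does not show that levels were equal.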

How the data were processed

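Libraries of 3 groups (dieldrin, PMA, DMSO; 3 each) were enriched for poly(A) RNA and primed at random, per the labels' protocols. STAR, edgeR and the build hg19 appear in the submitters' processing notes; how reads were counted, and whether by strand, is not given in the sources used here. Genes that overlap others or have near-identical copies therefore carry uncertain counts. Per the file headers, the authors' tables give per gene a mean normalised count (signal), log2 changes against DMSO with and without shrinkage, their standard error and test statistic (score), and the p-value before and after adjustment. The notes do not say which tool shrank the changes.

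Group means were worked out from the mean over 9 libraries, equal in both tables for all 44416 genes, and the 2 unshrunken log2 changes. The deposited errors fitted a normal prior of SD 0.164 log2, from which each gene's dispersion was solved. The statistic rebuilt this way lay within 0.05 of the deposited one for 92.4% of tested genes with dieldrin and 93.2% with PMA. The difference was divided by an error from the group means and the mean of the 2 dispersions, tested against the normal distribution (two-sided) and adjusted by Benjamini-Hochberg over the 17612 genes with an adjusted p in both tables. These p-values rest on the authors' dispersion estimates and carry no penalty for estimating them. CPM scales each mean count to a common total. No count per library was used, so the depth is unknown.

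The rule for named genes took the 12 largest differences each way among called genes with 1 CPM or more, then the next 4 by p, then the 4 members of lowest p in each of 40 lists (560 entries), and 25 genes in any case. Members and lists were chosen with earlier results of these data known. Other genes called in a list, the genes said to be chosen after their values were seen, SLA, LAX1, TAGAP, CBX6, FAM83D, RND1 and the 7 added lists fall outside this rule. Results for some genes that the rule or a list names are not reported here. Gene types and coding sequences came from GENCODE v29, which matched 41842 IDs; promoters came from RefSeq (GRCh38.p14), whose coordinates are not those of hg19. Besides the cyclic AMP element and the kappaB motif, the heat shock element, the AP-1 site (TGAGTCA or TGACTCA) and the CArG box were searched on both strands. In this order they were in 0, 0 and 3 (6.12%) of the 49 matched promoters of genes raised by dieldrin and higher than with PMA. Matched promoters of tested genes held them at 0.311%, 2.54% and 0.994%. The counts were 1, 0 and 0 of 12 for genes raised by PMA and higher than with dieldrin, and 0, 1 and 0 of 58 for dieldrin-lowered genes. Scripts were tested on simulated data. The software was Python 3.11.15 (scipy 1.17.1, numpy 2.4.6, pandas 2.3.3, matplotlib 3.10.9). Alternatives were other errors, dispersions, thresholds, filters, centring and rescaling. Lists of transcription sites from the ribosomal RNA-depleted libraries were not used here.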

Additional observations from a re-analysis of the deposited data

Results flagged for a closer look

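SLA, which encodes an adaptor that dampens T cell receptor signalling, was the 1 tested gene that the authors' deposited table calls higher than DMSO with dieldrin and lower with PMA. Its means were 12744 counts with dieldrin, 9100 with PMA and 10812 with DMSO, a log2 difference of 0.49 ± 0.0583 (SE) with an adjusted p of 4.75e-14 by the normal two-sided test.

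Of 14 genes at 1 CPM or more that lack a p-value in the authors' deposited table, 5 had means at least 2-fold apart, all higher with dieldrin than with PMA. These were FOSB with a log2 difference of 5.75 ± 0.253, TNF with 4.73 ± 0.185, EGR3 with 4.14 ± 0.267, CYR61 with 3.06 ± 0.391 and EGR4 with 1.96 ± 0.274. The errors are those implied by the deposited values, and no test was made. Why these p-values are missing is not given in the sources used here. Without values per library, an outlying count in a single library could carry such a mean unseen, so the small errors do not vouch for these gaps.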

How the results depend on the processing

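Without counts per library, no library could be left out and the role of a single library is unknown. No paired analysis was possible because the deposited columns hold no values per library, although the labels number the libraries 1 to 3 in every group. The main counts were 115 genes higher and 143 lower with dieldrin, and 29 and 27 among listed genes. With shrunken changes and the root of the summed squared errors, which ignores the covariance from the shared DMSO libraries, 46 were higher and 41 lower, with 14 listed genes lower, and all 87 were among the 258. With that covariance 261 were called, 256 of them shared. With the statistic divided by its scaled median absolute deviation (0.870), 221 were higher and 237 lower. At an adjusted p under 0.01, 94 were lower. At 2-fold or more, 47 were higher and 20 lower, with 13 listed genes lower, so that 70.1% of the calls were higher against 44.6%. That share includes genes under 1 CPM, and called genes under 1 CPM lay nearly all on the higher side. The larger dispersion, centring, a threshold of 0.1, genes of at least 1 CPM and all 43328 genes with a p-value kept each count within 1.5 times, with 254, 257, 329, 251 and 195 calls. Of 164 named genes tested, 0 changed direction under any of these settings. Only the shrunken changes and the centring, by 0.0024, alter the difference itself, so under the other settings its sign could not change. With the summed squared errors 18 lost their call, among them BIRC3 (adjusted p = 0.0681), NFKBIZ (0.254), TNFAIP3 (0.501), NOTCH3 (0.0899), DNAJB1 (0.273) and MYC (0.207). MIR146A (0.0787) and XBP1 (0.066) lost theirs over all genes with a p-value. Among others, DUSP6, IER5 and HEXIM1 gained one at 1 CPM or more.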
